A study of Mus musculus with 3 samples.

Results

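The ribosomal protein pseudogenes were the genes whose name begins with Rpl or Rps and contains -ps, the suffix given to a pseudogene. This rule found 305 of the 55573 genes in the table. They were named after 62 parent genes, the parent being the gene whose name stands before the suffix. A row for the parent was found for 304 of them, the exception being Rpl48-ps1, which was listed at 0 in every library. Rps4l-ps and its parent Rps4l were both listed at 0, so a share of the parent could be computed for 303 pseudogenes. Of the parents, 19 had 1 named pseudogene and 31 had at least 3, with Rpl31 and Rps12 at 24 each. The GENCODE M21 annotation lists 292 of the 305 as processed pseudogenes and 7 as transcribed processed pseudogenes. The other 6 (Rps12-ps3, Rpl9-ps6, Rpl36a-ps1, Rpl10-ps3, Rpl9-ps1 and Rpl36-ps4) are listed there as protein-coding genes, against their names.

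RNA was taken from NIH3T3, a long-established mouse fibroblast line, cultured in DMEM with fetal bovine serum and without a named treatment. There were 3 libraries of this 1 condition (library 1, library 2 and library 3), measured by UMI-RNAseq, in which a random tag on each molecule lets PCR copies be removed. Separate cultures are named neither in the labels nor in the methods, and every SD given here may therefore hold technical variation alone. Values are FPKM, which are fragments scaled to a gene length of 1 kb and to a library of 1000000 counted fragments. The libraries held 13959723 to 14423209 counted fragments. All 8 fibroblast markers (Col1a1, Col1a2, Col3a1, Fn1, Vim, Lox, Thy1 and Pdgfrb) had mean levels between 31.6 and 4377 FPKM. The extraction label mentions retina, and the 7 retina markers reported here (Rcvrn, Crx, Opn1sw, Gnat1, Pde6b, Rlbp1 and Sag) lay between 0.0223 and 0.363 FPKM, with none at 0.

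Ribosomal proteins form the protein part of the small (Rps) and large (Rpl) subunits of the ribosome, and their mRNAs are among the most abundant in growing cells. Processed pseudogenes arise when such an mRNA is copied back into DNA and inserted elsewhere in the genome, so that the copy has no introns. Ribosomal protein genes have left many such copies in mammalian genomes. A copy that has changed little since its insertion has nearly the letters of the mRNA of its parent, and short reads of both are then hard to assign to the right gene.

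How alike the letters can be is shown by 6 pairs on which the results below turn. Each stretch is given 5′ to 3′ for the parent mRNA and then for the pseudogene, and capitals mark the bases at which the pair differ. Letters, coordinates and strands come from GENCODE M21 on GRCm38, and positions in a substitution count from the A of the parent's ATG as 1, with the parent's base first. Rps2-ps13 (ENSMUSG00000081684) is shown at coding bases 50 to 310 (chrX:52898637-52898897, plus strand), where it differs from Rps2 by T60A, A84G, T204C and G300A. Over the whole coding sequence the identity was 99.2%.
Rps2: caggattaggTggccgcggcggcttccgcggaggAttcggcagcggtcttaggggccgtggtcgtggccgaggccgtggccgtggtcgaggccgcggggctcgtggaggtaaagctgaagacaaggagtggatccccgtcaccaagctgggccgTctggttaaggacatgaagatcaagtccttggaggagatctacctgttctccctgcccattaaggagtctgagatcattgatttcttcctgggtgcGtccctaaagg
Rps2-ps13: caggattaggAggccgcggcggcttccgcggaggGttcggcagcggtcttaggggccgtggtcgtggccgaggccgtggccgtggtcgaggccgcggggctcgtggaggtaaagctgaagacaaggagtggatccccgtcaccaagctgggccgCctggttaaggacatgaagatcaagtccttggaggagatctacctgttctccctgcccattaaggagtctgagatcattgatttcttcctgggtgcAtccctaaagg

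Rpl34-ps1 (ENSMUSG00000068396) is shown at coding bases 122 to 328 (chr6:71124731-71124937, plus strand) with T132C and C318G, its 2 differences from Rpl34.
Rpl34: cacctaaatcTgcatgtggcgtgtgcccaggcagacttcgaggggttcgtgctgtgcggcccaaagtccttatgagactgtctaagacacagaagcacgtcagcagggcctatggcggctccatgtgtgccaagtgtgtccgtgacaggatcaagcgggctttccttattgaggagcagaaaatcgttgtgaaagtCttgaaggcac
Rpl34-ps1: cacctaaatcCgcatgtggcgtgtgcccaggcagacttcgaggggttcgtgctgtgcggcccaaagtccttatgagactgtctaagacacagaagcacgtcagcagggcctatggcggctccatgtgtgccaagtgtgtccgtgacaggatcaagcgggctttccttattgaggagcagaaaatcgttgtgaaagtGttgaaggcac

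Rps10-ps2 (ENSMUSG00000099764) is shown at coding bases 383 to 483 (chr16:20822158-20822258, minus strand), which hold all 5 of its substitutions relative to Rps10 (T393C, T408C, C437G, A438G and G473A).
Rps10: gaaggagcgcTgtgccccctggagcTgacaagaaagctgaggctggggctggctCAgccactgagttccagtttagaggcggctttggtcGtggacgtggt
Rps10-ps2: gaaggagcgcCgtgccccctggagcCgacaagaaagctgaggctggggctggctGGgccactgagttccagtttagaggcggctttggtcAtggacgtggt

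Rpl21-ps15 (ENSMUSG00000083596) is shown at coding bases 326 to 442 (chrX:151215208-151215324, minus strand), with T336C, G378A and T432C relative to Rpl21.
Rpl21: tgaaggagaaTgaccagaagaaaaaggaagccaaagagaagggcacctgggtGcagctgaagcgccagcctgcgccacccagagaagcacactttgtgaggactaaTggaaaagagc
Rpl21-ps15: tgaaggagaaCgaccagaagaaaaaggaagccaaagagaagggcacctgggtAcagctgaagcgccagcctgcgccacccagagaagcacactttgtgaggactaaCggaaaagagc

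The last 2 pairs come from families in which the level of copies changed between libraries. Rps27a-ps2 (ENSMUSG00000058838) is shown at coding bases 345 to 405 (chr9:83410004-83410064, plus strand) with A375G, its only substitution. The other differences counted are the last 4 coding bases of Rps27a, which lie beyond the annotated end of the copy and were not compared. Rpl35a-ps2 (ENSMUSG00000081214) is shown at coding bases 126 to 186 (chr1:181242135-181242195, minus strand) with G156A, and the annotated sequences of Rpl35a-ps3, Rpl35a-ps4 and Rpl35a-ps6 are the same as that of Rpl35a-ps2 over all 333 bases.
Rps27a: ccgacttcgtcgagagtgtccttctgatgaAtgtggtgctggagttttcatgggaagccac
Rps27a-ps2: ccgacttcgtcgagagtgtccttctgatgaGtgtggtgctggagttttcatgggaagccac
Rpl35a: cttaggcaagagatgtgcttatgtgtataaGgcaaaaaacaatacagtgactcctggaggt
Rpl35a-ps2: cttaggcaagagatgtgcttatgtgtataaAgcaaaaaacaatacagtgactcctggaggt

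Among the 305 pseudogenes, 129 had an FPKM above 0 in every library, 14 in 2 libraries, 31 in 1 and 131 in none. In at least 1 library, 57.0% of them were above 0, beside 47.1% of all genes and 30.4% of the 9938 other processed pseudogenes of the annotation. Detection in every library thus covered 42.3% of them, beside 34.0% of all genes, 15.3% of those other processed pseudogenes and all 79 functional cytosolic ribosomal protein genes. Of the 305, 89 reached a mean of 1 FPKM (29.2%, beside 23.2% of all genes and 7.32% of the other processed pseudogenes) and 43 reached 10 FPKM (14.1%, beside 14.8% and 2.05%). A mean of 100 FPKM was reached by 18, a count for which no share over all genes is given here. For copies listed at 0, a count of 0 allows a level of up to 0.230 to 1.26 FPKM depending on length (3 fragments, counting error only). Just above 1 FPKM stood Rps15a-ps4 with 1.24, 0.641 and 1.25 FPKM in libraries 1, 2 and 3. Just below it stood Rpl5-ps1 with 1.01, 0.721 and 0.938 FPKM. No named pseudogene was detected for 10 parents (among them Rpl27a, Rpl32, Rpl35, Rpl48, Rpl7l1, Rplp0, Rplp1, Rps23 and Rps4l).

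Relative to the parent, the typical named pseudogene was close to 0. The median share, taken as the mean of the percentages of the parent FPKM in each library, was 0.0162% over 303 pseudogenes and 1.21% over the 129 detected in every library. A share of 1% was reached by 70 and a share of 10% by 34. A share of 50% was reached by 17, and 11 exceeded 100%, of which 9 did so in every library. The lowest share above 0 belonged to Rpl12-ps1, with 0.139 FPKM from 1 fragment in library 1 and 0 in the others, beside a mean of 1353 FPKM for Rpl12. The 6 largest shares were those of copies of Rps2, Rps10, Rpl34 and Rpl21, parents that stood left of most others in the plot of pseudogene against parent.

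**Figure D1:**
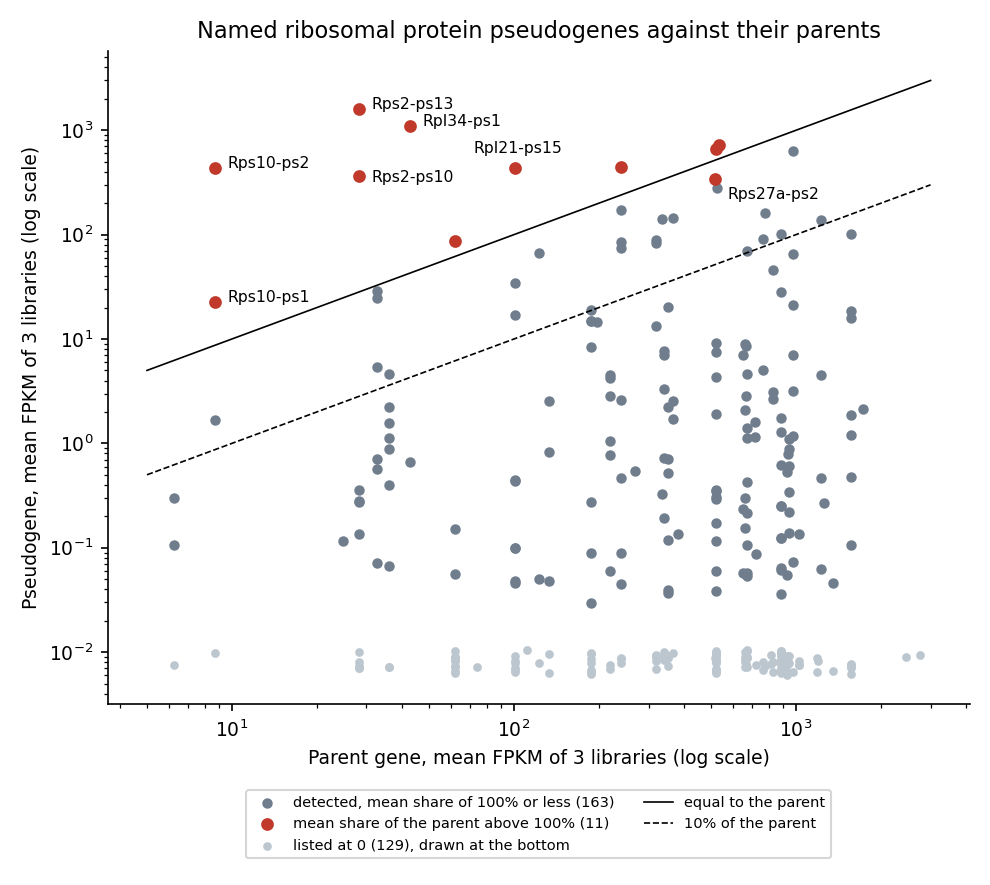
Mean FPKM over 3 libraries of each named ribosomal protein pseudogene (vertical, log scale) against its parent gene (horizontal, log scale), with pseudogenes listed at 0 in a strip at the bottom whose height has no meaning. Red points mark the 11 pseudogenes whose mean share of the parent exceeded 100%, among them Rps2-ps13 at 1588 FPKM beside 28.2 for Rps2, and Rps27a-ps2 lies under the line of equality because its share was above 100% in library 1 alone.

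The summed FPKM of the pseudogenes was 9640, 8743 and 9274 in libraries 1, 2 and 3. This was 25.2%, 22.1% and 23.9% of the summed FPKM of their parents (mean 23.7% ± 1.53, SD, n = 3). On the log2 scale the ratio was −2.08 ± 0.09 (SD), lower than the parents in 3 of 3 libraries, and p was 0.25 by an exact two-sided permutation test that flips signs, the smallest p possible with 3 libraries. In fragments the pseudogenes took 0.569% ± 0.0266 (SD, n = 3) of each library. The sum rested on few copies. Rps2-ps13 alone held 17.2% of it, the highest 3 held 36.9%, the highest 5 held 51.0% and the highest 10 held 73.0%.

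The largest shares were those of copies of Rps2, Rps10 and Rpl34. Rps2, a protein of the small subunit near the entry of the mRNA channel, had 27.8, 24.5 and 32.3 FPKM in libraries 1, 2 and 3. Rps2-ps13 had 1689, 1591 and 1484 FPKM, so that every library of the pseudogene lay above every library of the parent, with a mean of 57.2 ± 10.0 times the parent (SD, n = 3). Rps2-ps10, which lies in an intron of Pde6a on the opposite strand, had 367, 357 and 377 FPKM, or 13.1 ± 1.44 times Rps2. Together the 11 named copies of Rps2, of which 6 were detected, held 98.6% ± 0.238 of the fragments assigned to Rps2 and its named copies.

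Rps10, a protein of the small subunit, showed the same order. Its own level was 9.7, 8.62 and 7.82 FPKM, the fourth lowest of the 79 ribosomal protein genes. Rps10-ps2 had 452, 436 and 429 FPKM, which was 50.7 ± 4.12 times the parent (SD, n = 3) with no overlap between the libraries of the 2 genes. Rps10-ps1 was lower, with 24.7, 21.3 and 21.9 FPKM, and was still 2.6 ± 0.173 times the parent. Rpl34, a protein of the large subunit, had 44, 39.3 and 45 FPKM. Rpl34-ps1 had 1091, 1096 and 1100 FPKM, which was 25.7 ± 1.87 times Rpl34, and its CV of 0.396% over libraries was below the 1.35% that counting error alone would give. These multiples are per length, and the lengths used were longer for the parents (715 and 670 bases) than for Rps10-ps2 and Rpl34-ps1 (496 and 354). In fragments the excess was smaller, with Rps10-ps2 at 3517% of Rps10 and Rpl34-ps1 at 1359% of Rpl34. Named copies held 97.4% ± 0.204 of the fragments of the Rps10 family and 93.1% ± 0.45 of those of the Rpl34 family. Of the 75-base stretches of Rpl34-ps1, 100% were also found in a transcript of another gene. This share was 83.3% for Rps2-ps13 and 75.4% for Rps10-ps2. The sources used here do not say how fragments that align equally well to several genes were counted. The levels and multiples of such copies are therefore uncertain.

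Smaller excesses were found for Rpl21-ps15, Rpl23a-ps3, Rps26-ps1 and Rps12-ps3. Rpl21-ps15 had 444, 427 and 446 FPKM, while Rpl21, a large-subunit protein, had 107, 73.1 and 123 FPKM. The pseudogene differed little between libraries, and its excess of 4.54 ± 1.15 times (SD, n = 3) varied with the parent. In fragments Rpl21-ps15 had 239% of those of Rpl21, the lengths used being 483 and 916 bases. Rpl23a-ps3 had 82.2, 92.8 and 84.5 FPKM, which was 1.4 ± 0.0795 times Rpl23a, a large-subunit protein at the exit of the peptide tunnel. For Rps26-ps1 (691, 753 and 720 FPKM, beside a mean of 534 FPKM for Rps26) and Rps12-ps3 (663, 630 and 702 FPKM, beside 519 FPKM for Rps12), the pseudogene was higher per length but rested on fewer fragments than the parent, at 74.4% and 90.7% of its fragments. Without division by length, 7 pseudogenes exceeded their parent in every library. Rps12-ps3 has the same coding sequence as Rps12 in every base, as do 10 other members relative to their own parents.

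Rpl17-ps10 and Rps27a-ps2 exceeded their parents in some libraries only. Rpl17, a large-subunit protein, had 223, 323 and 170 FPKM. Rpl17-ps10 had 459, 296 and 582 FPKM, so it was above the parent in libraries 1 and 3 and below it in library 2. Rps27a encodes a fusion of ubiquitin and a small-subunit protein. Rps27a-ps2 had 711, 79.3 and 241 FPKM beside 226, 699 and 618 FPKM for Rps27a, and was above the parent in library 1 alone.

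**Figure D2:**
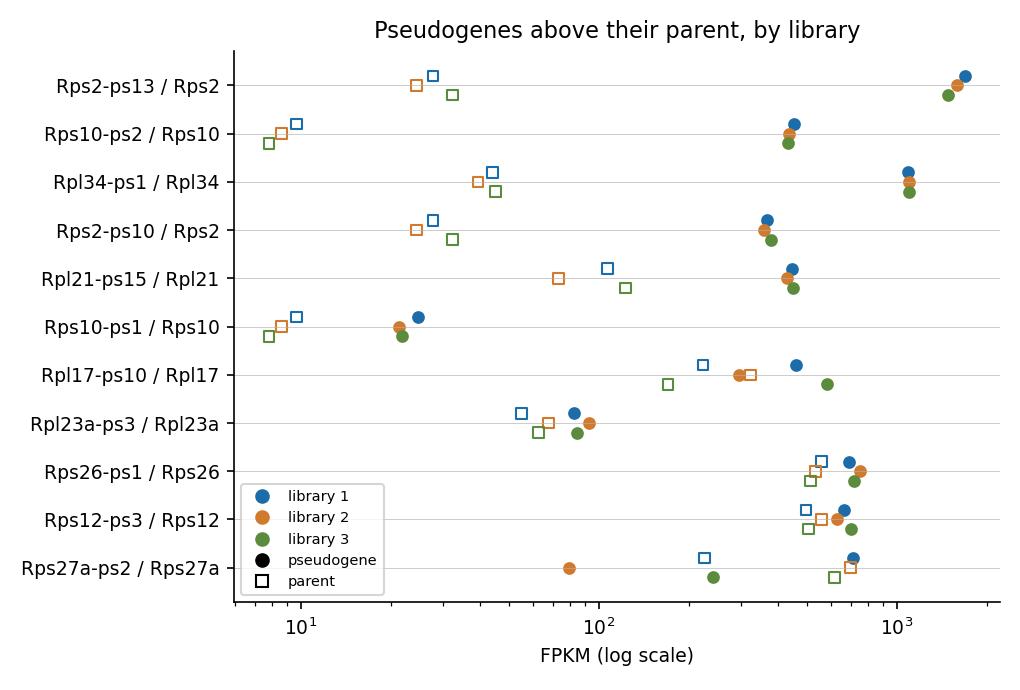
FPKM (log scale) of the 11 pseudogenes with a mean share above 100% of the parent (filled circles) and of their parents (open squares), 1 point for each of libraries 1, 2 and 3. The points of pseudogene and parent are far apart for Rps2-ps13 (1484 to 1689 FPKM beside 24.5 to 32.3) and cross between libraries for Rpl17-ps10 and Rps27a-ps2.

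Of the 30 pseudogenes with the highest mean FPKM, the other 20 had a mean share under 100%. Among them Rpl35a-ps2 was slightly above Rpl35a per length in libraries 1 and 2 (36.0 and 32.9 FPKM beside 35.1 and 30.9). It was below Rpl35a in library 3 (16.8 beside 32.0), with a mean share of 87.1% ± 30.1 (SD, n = 3). In fragments Rpl35a-ps2 was below the parent in every library, with 173, 153 and 80 beside 420, 358 and 380. The lengths used were 333 bases for the copy and 829 for Rpl35a. Rpl3-ps1 had 627, 575 and 688 FPKM, which was 64.5% ± 6.21 (SD, n = 3) of Rpl3, a large-subunit protein close to the peptidyl transferase centre. Rpl14-ps1 stood at 53.4% ± 1.77 and Rps18-ps3 at 53.7% ± 5.11 of their parents. Rpl17-ps3 was at 77.6% ± 22.4 of Rpl17, and the wide error again followed the parent, since the copy itself had 185, 171 and 165 FPKM. Rpl36a-ps2, Rpl38-ps2 and Rps16-ps2, which have the coding sequence of their parents unchanged, stood at 39.1% ± 11.5, 42.1% ± 2.7 and 20.7% ± 1.00. Rpsa-ps10 (6.43% ± 0.363) and Rpl10-ps6 (6.62% ± 2.56) were among those with lower shares.

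Some of the ribosomal protein genes with the lowest levels were parents of the strongest copies. The 79 functional ribosomal protein genes had a median of 664 FPKM, and 11 of them were under 100 FPKM. With the FPKM of the named pseudogenes added to their parents, 7 were under 100 FPKM. Rps2 moved from rank 74 of 79 to rank 3, Rpl34 from 71 to 19, Rpl17 from 62 to 22 and Rps10 from 76 to 59. The parents of the pseudogenes include 59 of these 79 genes, and the FPKM of genes of different length were added here only to describe where the fragments were assigned.

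Part of the copies differed widely between libraries. Among the 89 pseudogenes with a mean of at least 1 FPKM, 16 had a highest library at least 2 times the lowest, which is 18.0%. The same held for 3.60% of the 12905 genes at that level, for 3.80% of the functional ribosomal protein genes and for 18.0% of the 727 other processed pseudogenes. The count was 8 without library 1, 10 without library 2 and 7 without library 3, and 6 of the 16 had at least 100 fragments in some library. Over the 40 pseudogenes with at least 100 fragments in every library, the median CV was 6.76%, beside a median counting CV of 4.21%, and 12 exceeded 3 times their counting CV. The same values are not given here for other genes, so they do not set these copies apart.

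The 16 pseudogenes did not share 1 high library. The highest value was in library 1 for 6 of them, in library 2 for 3 and in library 3 for 7. Rps27a-ps2 had the largest difference in number of fragments, with 4792, 517 and 1608 in libraries 1, 2 and 3, a ratio of 8.97 times per length and library total. The largest ratio was that of Rpl35a-ps4, at 75.6 times, which rested on 1 fragment in each of libraries 1 and 2. Rpl9-ps4 was highest in library 1, with 1043, 477 and 542 fragments. Rpl10-ps6 was lowest in library 1, with 328 fragments beside 687 and 750. Rpl15-ps3, chosen after its values were seen, had 17, 12 and 211 fragments and has the coding sequence of Rpl15 unchanged. Without library 3 it spanned 1.37 times, beside 17.2 times with it.

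When the fragments of a copy were added to those of its parent, the sum varied little in most pairs. The highest library of the pair was a median of 1.05 times the lowest over the 16 pseudogenes, and 12 of the pairs were below 1.2 times. For Rps27a the parent alone spanned 3.09 times and the pair 1.13 times. Where the parent had many more fragments than the copy, the sum was close to the parent itself, so the families with a large part in the copies are described on their own.

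In 19 families the named copies held at least 10% of the fragments. In 15 of them, the family sum spanned less between libraries than the parent alone, with medians of 1.08 and 1.14 times. Rpl17 alone had 3384, 4733 and 2562 fragments, a span of 1.89 times. With its named copies the family had 9867, 9739 and 9880 fragments, a span of 1.02 times after scaling to the library totals. Rpl21 went from 1.68 to 1.18 times, Rps2 from 1.32 to 1.1 times and Rps10 from 1.24 to 1.06 times. In the Rps2, Rps10 and Rpl34 families the sum is nearly that of the copies alone. Their parents rest on 295 to 399, 80 to 100 and 368 to 431 fragments, so a narrower span of the larger sum carries little information there. In any family a sum can span less than its parts even where these vary independently, and this was not tested. Rpl30 was the exception among those with a large spread, at 2.7 times alone and 2.32 times with its named copies, which held 12.4% ± 6.65 of the family's fragments. Rpl36a, Rps18, Rpl9 and Rpl3 had a wider span with their copies than without.

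**Figure D3:**
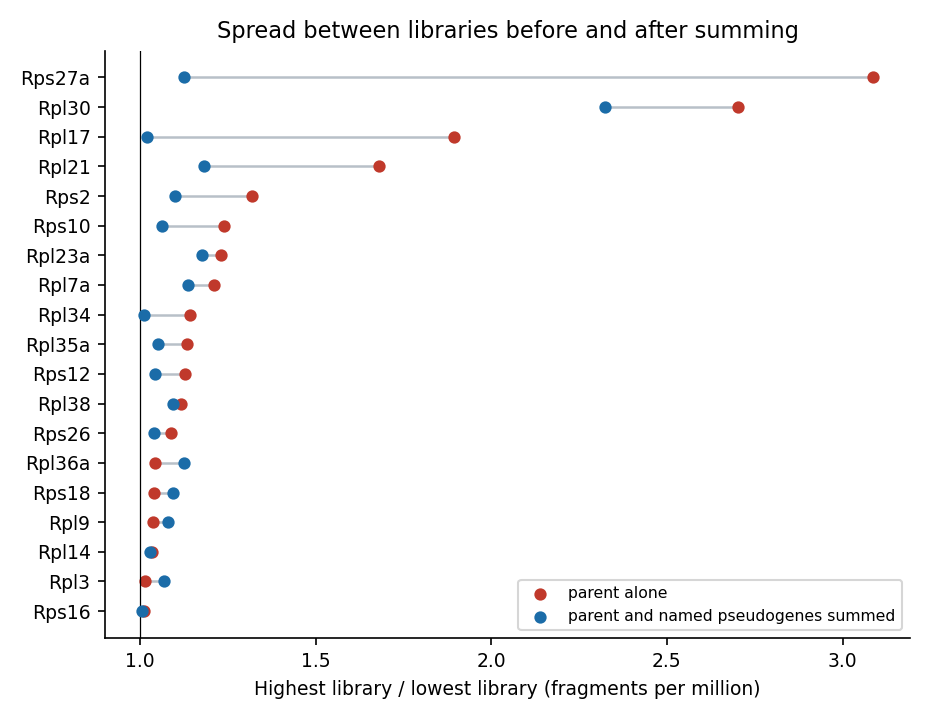
Highest library divided by lowest library, in fragments scaled to the library totals, for the 19 parents whose named pseudogenes held at least 10% of the family's fragments. Red points are the parent alone and blue points the parent and its named pseudogenes summed, and the sum lay closer to 1 for 15 of the 19, as for Rps27a (3.09 to 1.13) and Rpl17 (1.89 to 1.02). A sum can span less than its parts even where these vary independently.

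The copies of Rpl35a include letter-for-letter identical pseudogenes, which are set beside each other here without the parent. Rpl35a-ps2 (chr1:181241988-181242320, minus strand) had 173, 153 and 80 fragments in libraries 1, 2 and 3. Rpl35a-ps4 (chr2:108874926-108875258, minus strand) had 1, 1 and 75 fragments, and Rpl35a-ps6 (chr5:123255481-123255813, minus strand) had 81, 120 and 147. Rpl35a-ps3, with the same 333 bases, had 4, 4 and 2. The values of Rpl35a-ps3, Rpl35a-ps4 and Rpl35a-ps6 were known when they were chosen. The copies thus ran in opposite directions, Rpl35a-ps4 being highest and Rpl35a-ps2 lowest in library 3. Summed over the 4, there were 259, 278 and 304 fragments, a span of 1.18 times after the same scaling. Rpl35a itself had 420, 358 and 380, a narrower span of 1.14 times. Rpl35a and all its named copies summed spanned 1.05 times. How fragments that align equally well to several genes were counted is not given in the sources used here, so the level of each of these copies is uncertain. The other groups of members with identical annotated sequences were 5 copies of Rps12 and 3 further copies of Rps12, all at 0, and the pair Rps19-ps1 and Rps19-ps2, with at most 5 fragments each.

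**Figure D4:**
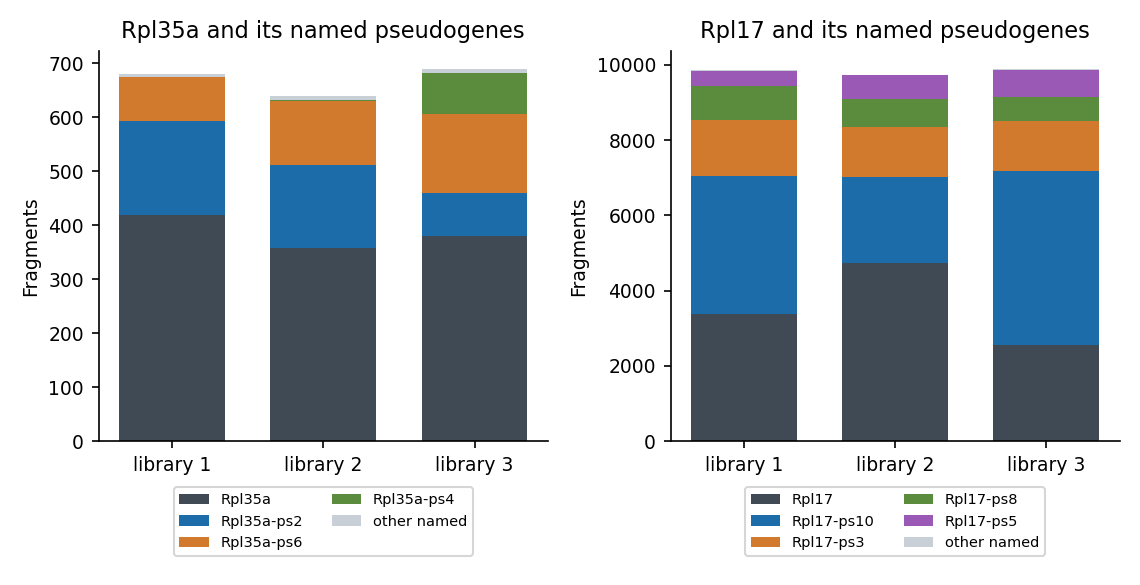
Fragments in libraries 1, 2 and 3 assigned to Rpl35a (left) and Rpl17 (right) and to their named pseudogenes, stacked, without division by gene length. The height of the stack changed less than its parts, as for Rpl17 with 9867, 9739 and 9880 fragments in all while the parent alone had 3384, 4733 and 2562.

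Detected copies were closer to their parents in sequence than copies at 0. The median identity to the coding sequence of the parent was 98.6% over the 129 pseudogenes detected in every library and 89.8% over those at 0. By identity, 9.52% of the 84 copies under 90% were detected in every library. This share was 17.2% of the 58 copies from 90% to 95%, 43.7% of the 71 from 95% to 98%, 78.0% of the 41 from 98% to 99% and 98% of the 49 from 99% upward. The only copy in this last class that was at 0 was Rps23-ps2 (99.5%), which lies on the strand opposite to an exon of C330021F23Rik and was chosen after its values were seen. Copies of high identity are also those whose fragments are hardest to assign, and expression and assignment cannot be told apart here.

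**Figure D5:**
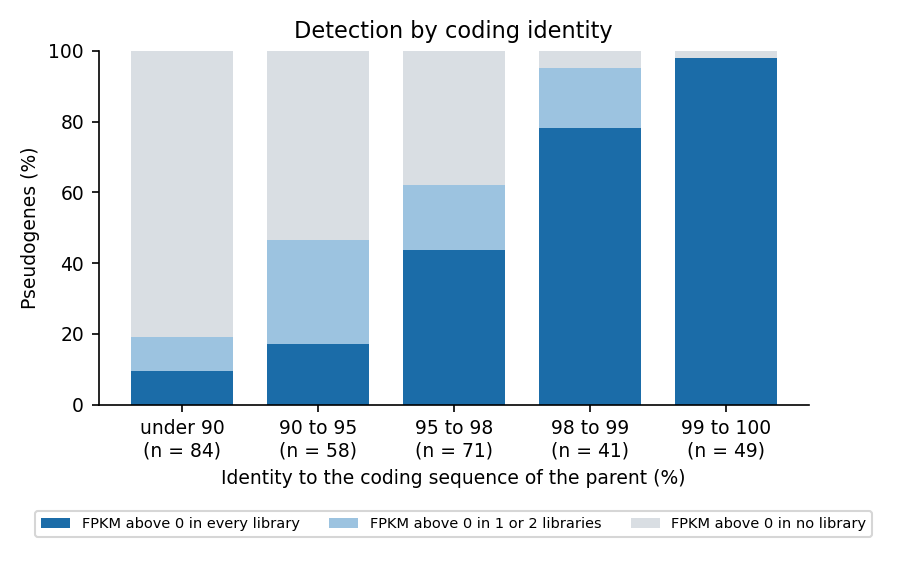
Percentage of named pseudogenes with an FPKM above 0 in every library, in 1 or 2 libraries and in none (vertical), by the identity of the copy to the coding sequence of its parent (horizontal, n in each class below the bars). Detection in every library was found for 9.52% of copies under 90% identity and 98% of those at 99% or more.

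An open reading frame of at least 95% of the parent's codons was present in 153 of the 305 copies. The frame was the longest from an ATG, in any reading frame, to a stop codon or to the end of the annotated sequence. Of the copies with such a frame 58.2% were detected in every library, beside 26.3% of those without. The 2 groups also differed in median identity to the parent's coding sequence, at 97.995% with the frame and 89.9% without. Whether the frame goes with detection apart from identity was not tested. All 11 copies with a mean share above 100% had such a frame. Among the 30 with the highest levels, Rps18-ps3 and Rpl10-ps6 were among those that lacked it. In Rpl10-ps6, a copy of the gene for a large-subunit protein added late in ribosome assembly, the frame had 152 of 214 codons.

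Short identical stretches were measured as 75-base words. The median pseudogene had 7.31% of its words in a transcript of the parent and 21% in a transcript of any other gene. In 13 pseudogenes every word was found in the parent, and 12 of these were detected in every library, the exception being Rps23-ps1. In 84 pseudogenes no word was found in any other gene's transcript, and their fragments are therefore the least open to a mix-up. Of these, 17 were detected in some library (20.2%, beside 57.0% of all 305 and 47.1% of all genes). In every library 5 were detected (5.95%, beside 42.3% and 34.0%). Their median identity to the parent's coding sequence was 87.6%, beside 95.5% over all members with a coding identity. Rpl19-ps3 was the highest, with 37, 40 and 38 fragments (2.12, 2.37 and 2.2 FPKM), a spread no larger than counting error allows. Rps10-ps4 had 10, 15 and 10 fragments, Rpl30-ps2 had 3, 5 and 6, Rpl26-ps6 had 3, 1 and 6, and Rps19-ps11 had 2, 1 and 1. These 5 were chosen after their values were seen, and none lay above 2.37 FPKM in any library.

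Most pseudogenes (212) lay outside any other annotated gene. Of the others, 56 lay in an intron on the opposite strand, 26 in an intron on the same strand, 7 over an exon on the same strand and 4 over an exon on the opposite strand. Detection in every library was found for 36.3% of those outside genes, 57.1% of those in opposite-strand introns and 61.5% of those in same-strand introns. It was found for 3 of the 7 over a same-strand exon and 1 of the 4 over an opposite-strand exon. Median identity to the parent's coding sequence was 95.3% outside genes, 95.9% in opposite-strand introns and 97.9% in same-strand introns. Its part in these differences was not tested. Whether the counting used the strand is not given in the sources used here, so fragments of a host gene's unspliced RNA and of the copy could not be told apart.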

How the data were processed

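UMI-RNAseq was measured in 3 libraries of NIH3T3 cells, which share 1 condition. Per the labels, the authors used UMI-tools 1.0.0, HISAT2 2.0.4, HTSeq 0.6.1 and DESeq 1.10.1. The authors deposited FPKM values, 1 column per library, in 2 tables with identical values, the second with gene names. The genome build and annotation of the counting are not given in the sources used here, and 0 columns of values were left unused.

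No count model was applied to the FPKM. Fragments were recovered as FPKM times the mean isoform length in GENCODE M21 (GRCm38, 55480 gene IDs matched) and the library total, taken from the steps between low values, and 99.2% of values above 0 came out whole within 0.01. All 305 pseudogenes did. The recovery was checked on simulated data. The library totals were 14423209, 13959723 and 14307241 fragments.

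Coding sequences of the parents were aligned within each pseudogene with edlib 1.3.9.post1. Missing bases counted as differences, also where the annotated copy ended before the coding sequence of the parent. Counting CVs are those of Poisson counts, and the limit for a gene at 0 is 3 fragments, both for counting error only. Python 3.11.15, numpy 2.4.6, pandas 2.3.3, scipy 1.17.1 and matplotlib 3.10.9 were used. The pseudogenes named are the 30 with the highest mean FPKM among the 89 with a mean of at least 1 FPKM or a share of at least 10%, those with the highest and lowest share, those without a parent row and those next to 1 FPKM. Members, gene lists and rules were chosen with earlier results of these data known. The alternatives left out each library in turn, used fragments, TPM or median-of-ratios scaling, and moved the limits on FPKM, share, spread and word length. Some genes are not reported here.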

Additional observations from a re-analysis of the deposited data

How the results depend on the processing

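No paired analysis was possible because the 3 libraries share 1 condition. Leaving out each library in turn gave 132 to 136 pseudogenes detected in every library, a median share of 0.0119% to 0.0178%, 7 to 10 pseudogenes with a spread of at least 2 times and a median span of 1.02 to 1.05 times for copy and parent summed. The count detected fell from 129 to 80 with a limit of 1 FPKM in every library. The median share was 0.0141% in fragments, 0 from the median over libraries, 1.21% over detected pseudogenes and 0.0998% with a pseudocount of 0.1 FPKM. The count at 10% of the parent fell from 34 to 28 in fragments, and was 70 at a limit of 1% and 17 at 50%. The summed share was 19.0% in fragments, 19.6% without Rps2-ps13 and, added after the data were seen, 14.7% without the Rps2, Rpl34 and Rps10 families. The 16 pseudogenes with a wide spread became 58 at a mean of at least 0.1 FPKM and 5 at 10 FPKM. Their count was 20 with TPM and 16 with median-of-ratios scaling. By an SD of 0.5 or more in log2(FPKM + 1) it was 10. With at least 100 fragments in some library, a limit added after the data were seen, it was 6. The median share of words was 18.0% with 50-base words and 0.295% with 100-base words. The parent of Rpl48-ps1 could not be found through a synonym, so that alternative gave no value. The log2 ratio of the sums kept its direction without each library, and its p cannot fall under 0.25 with 3 libraries. Identity was measured on annotated transcripts, so sequence beyond them was not compared.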

Other observations

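With the named pseudogenes added, 7 functional ribosomal protein genes were still under 100 FPKM (among them Rpl24, Rpl29, Rpl13a, Rpl30, Rpl35 and Rpl35a), and for 3 of those named here a gene with a provisional name (Gm and a number) with which they have 75-base words in common was over 100 FPKM. The provisional gene given for each is the one with the highest mean FPKM among those with common words, and all were chosen after their values were seen. Rpl30, a large-subunit protein, had 33.2, 20.3 and 54.9 FPKM in libraries 1, 2 and 3, and Gm12191, listed as a processed pseudogene, had 1240, 1137 and 1198 FPKM. Rpl29 had 6.01, 7.13 and 5.5 FPKM, and Gm13841 had 370, 891 and 1083 FPKM, with library 1 well below the others. Rpl35a had a mean of 32.7 ± 2.17 FPKM (SD, n = 3) and Gm10243 had 182 ± 8.79 FPKM.

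For the other 3 of the genes named, the provisional gene was under 100 FPKM. Rpl24 was the lowest of the 79 genes at 1.08 ± 0.15 FPKM (SD, n = 3), and its highest such gene, Gm12254, was higher, with 4.53 ± 0.507 FPKM. Rpl13a had 24.7 ± 2.36 FPKM and Gm11478 was lower, with 5.12 ± 0.405 FPKM. Rpl35 had 74.1 ± 4.81 FPKM and Gm2000, listed as protein-coding, was also lower, with 36.7 ± 3.84 FPKM. None of these genes has -ps in its name, so they are outside the 305 pseudogenes.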
